A study of Mus musculus with 61 samples.

Results

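The 44 genes described here run the cell cycle and copy the DNA, and they were chosen by symbol from a fixed list of 7 roles. The roles held 2 labels of proliferating cells, 7 cyclins and cyclin-dependent kinases, 13 genes of origin licensing and the replication fork, 4 genes of nucleotide supply, 3 E2F factors, 12 genes of mitosis and 3 inhibitors of cyclin-dependent kinases. All 44 were found among the 24421 gene symbols of the count tables, and all 44 had at least 10 reads in each experiment and were tested there. RNA-seq counts of 61 mouse libraries (mice labelled C57BL/6, aged 2 months, with the knock-in alleles made in C57BL/6N) came from 3 experiments around STAT5B, a cytokine-activated transcription factor, and its variants N642H, Y665F and Y665H. In the first, naive CD4+ T cells sorted from pooled lymph nodes and spleens of wild-type (WT) or Stat5a/b-null mice were activated, transduced with an empty retroviral vector or a vector for STAT5B, N642H, Y665F or Y665H, kept with IL-2 for 48 h and sorted for GFP, with 3 libraries per vector and background. The null mice carried a Cd4-Cre transgene and floxed Stat5a/b, so Stat5a/b were deleted where the Cd4 promoter is active, and the constructs were expressed from a retrovirus and not from the Stat5b locus. In the second, T cells isolated from spleens of WT, Y665H and Y665F knock-in mice were cultured for 24 h in IL-2 plus IL-7 (4 libraries of each genotype). Of these, Y665H replicate 4 appears to pool the reads of replicates 1 and 2. Y665F cells without interleukin gave 3 libraries, for which the study methods give no culture. In the third, spleens gave 4 WT, 5 Y665H and 7 Y665F libraries. The library labels name the knock-in allele and not whether 1 or both copies carried it, and the spleen libraries are titled as splenocytes.

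A dividing cell first loads the MCM helicase on its replication origins with the help of Cdc6 and Cdt1, then fires them when cyclin E and Cdk2 become active, and later enters mitosis under cyclin B and Cdk1. E2F factors switch on the genes of DNA synthesis, and mitotic genes are switched on later, often from promoters that carry a CHR element beside CCAAT boxes. The inhibitors p21 (Cdkn1a), p27 (Cdkn1b) and p18 (Cdkn2c) hold cyclin-dependent kinases back. In T cells IL-2 and IL-7 signal through STAT5, and the mouse spleen holds dividing erythroid precursors, which use Alas2 to begin heme synthesis, beside lymphocytes.

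The promoters of the members are shown first, since many of them moved together. RefSeq windows of 300 bases (250 before the start site and 50 after it, GRCm38.p6) were matched for 37 members, in 41 windows. Ccna2, Ccne2, Mcm4, Gins1, Gins2, Aurkb and Kif20a had no window in the table. An E2F match (TTTCCCGC, TTTCGCGC, TTTGCCGC or TTTGGCGC on either strand) was in the windows of 9 members, in 22% of the 41 windows against 2.26% of all 32851. A CHR match (TTTGAA or TTCGAA on either strand) was in 41.5% of the member windows against 19.2% of all, and CCAAT on either strand in 75.6% against 37.4%. All 17 members with a CHR match also had CCAAT, and 7.52% of all windows held both. The E2F matches were in 6 of 10 matched genes of licensing and the fork and in 0 of 10 genes of mitosis, while CHR matches were in 8 of those 10 genes of mitosis. A STAT5 match (TTCNNNGAA, which reads the same on both strands and can share its last 3 bases with a CHR match) was in the windows of Mcm5 and Cdc45, in 4.88% of the member windows against 8.3% of all. Such matches describe letters and no binding was measured here. Stretches upstream of the start site are printed below for Cdc6 and Mcm5 as genes of replication with an E2F match, for Mki67 and Cdc20 as genes with CHR beside CCAAT, and for Cdkn1b, which fell in comparisons where other members rose. Capitals mark the matches, and each stretch reads 5′ to 3′ on the gene's strand.
Cdc6 (chr11:98907993-98908040, plus strand; 1 E2F match): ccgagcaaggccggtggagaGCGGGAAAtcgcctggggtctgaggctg
Mcm5 (chr8:75109259-75109508, plus strand; a STAT5 match, then E2F matches that overlap, then 2 CCAAT boxes): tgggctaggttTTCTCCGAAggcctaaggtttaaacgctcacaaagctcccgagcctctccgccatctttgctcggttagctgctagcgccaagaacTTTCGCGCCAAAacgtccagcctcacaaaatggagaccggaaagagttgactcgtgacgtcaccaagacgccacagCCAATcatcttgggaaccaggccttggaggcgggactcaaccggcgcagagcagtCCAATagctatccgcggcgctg
Mki67 (chr7:135716452-135716587, minus strand; 3 CCAAT boxes, then 2 CHR matches): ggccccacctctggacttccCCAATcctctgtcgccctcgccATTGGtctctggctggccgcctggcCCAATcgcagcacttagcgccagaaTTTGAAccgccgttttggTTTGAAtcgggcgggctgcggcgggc
Cdc20 (chr4:118437344-118437416, minus strand; a CHR match between 2 CCAAT boxes): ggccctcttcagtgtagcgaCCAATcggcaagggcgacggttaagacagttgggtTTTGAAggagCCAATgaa
Cdkn1b (chr6:134920220-134920390, plus strand; 2 CCAAT boxes): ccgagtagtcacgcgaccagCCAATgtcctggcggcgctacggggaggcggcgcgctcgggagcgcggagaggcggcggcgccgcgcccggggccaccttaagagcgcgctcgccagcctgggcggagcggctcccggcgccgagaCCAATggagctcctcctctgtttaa
Mki67 and Cdc20 thus carried the pair of elements close together, and Cdc6 carried 1 E2F match in inverse orientation. The Mki67 gene itself spans chr7:135689784-135716361 and the Cdkn1b gene chr6:134920401-134925513 (GENCODE vM21 on GRCm38), and all 44 members are protein-coding genes there.

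Values are reads on genes scaled to a common library size with TMM (CPM), comparable between libraries of 1 experiment, and the size of a change is a log2 fold change with its standard error. Genes were tested with edgeR's quasi-likelihood test and adjusted over all genes of a fit. A gene changed where its adjusted p was under 0.05, and it was called where its log2 fold change was also beyond 1. Shares of all genes follow these 2 rules, and none was taken at an unadjusted p. Depth was 18825994 to 49850689 reads on genes in the CD4+ libraries, 2017012 to 27394249 in splenic T cells and 24203179 to 43330536 in spleens. Stat5b stood at 2.78 to 9.49 CPM in null cells with the empty vector and at 186 to 365 CPM in null cells given a STAT5B vector. The 11 T-cell markers with reads summed to 2809 to 5375 CPM in the CD4+ libraries, where Alas2 stayed at or below 1.33 CPM. Among splenic T cells, Y665F replicate 3 with interleukin stood apart, with 2851451 reads on genes, 1405 CPM of erythroid markers against 47.2 to 144 in all others, 713 CPM of B-cell markers and 1275 CPM of T-cell markers. Y665F replicate 4 with interleukin also held less of the T-cell markers (1898 CPM) and more of the B-cell markers (200 CPM) than replicates 1 and 2 (3214 and 2891 CPM of T-cell and 19.8 and 33.8 CPM of B-cell markers). Y665H replicates 1 and 2 were shallow, at 3310342 and 2017012 reads. Y665H replicate 4 held 5327354 reads, exactly the total of these 2, so it appears to pool their reads. The tests counted it as a separate library, so standard errors and p-values for Y665H T cells may be too small. Among spleens, Y665H replicate 1 stood apart from its group, with 1626 CPM of erythroid markers against 6822 to 9784 in the other 4. In bulk samples like these, fewer dividing cells and less RNA of a gene per cell cannot be told apart.

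In Stat5a/b-null CD4+ T cells, STAT5B, N642H and Y665F raised members, and Y665H raised none past the test. How many rose depended on the model: 4 to 10 without the replicate number as a block and 21 to 22 with it, although same-numbered libraries deviated together. Without the block, which was the design fixed for the test, 9 members rose and 1 fell with N642H, against 5.67% and 5.97% of all genes. With Y665F 10 rose and 1 fell, against 5.16% and 4.42% of all genes, and with STAT5B 4 rose, against 0.95% of all genes. With Y665H 0 members changed by edgeR and 0 by DESeq2, 1 had an unadjusted p under 0.05, and 0.0249% of all genes changed. Without the block no change of a member passed the fold minimum, while with it Cdkn1a did with N642H and Y665F. The median log2 fold change without the block over the 44 members was 0.27 for STAT5B, 0.22 for N642H, 0.25 for Y665F and 0.08 for Y665H, beside 0.00, 0.01, -0.02 and 0.04 over all genes. These 4 comparisons share their empty-vector libraries. The counts rested on single libraries. For N642H (10 members changed) the count was 4 without N642H replicate 1, 5 without replicate 2 and 15 without replicate 3. For Y665F (11 members changed) it was 3 without Y665F replicate 1 or 2 and 5 without empty-vector replicate 2 or 3. For STAT5B (4 members changed) it was 0 without empty-vector replicate 1 or STAT5B replicate 1 or 2, and 1 without empty-vector replicate 2 or 3.

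Ccne1, the cyclin that opens S phase, stood at 50.7, 48.9 and 45.6 CPM with the empty vector. It read 78.1, 78 and 71.2 CPM with STAT5B. It read 95.1, 94.2 and 74.5 CPM with N642H and 93.8, 91.7 and 64.4 CPM with Y665F. None of these 9 libraries overlapped the empty-vector libraries, whereas Y665H gave 67.1, 57 and 43.2 CPM, which overlapped them. The log2 fold changes of Ccne1 were 0.64 ± 0.16 (SE, adjusted p = 0.0475) for STAT5B, 0.83 ± 0.16 (adjusted p = 0.00202) for N642H, 0.76 ± 0.16 (adjusted p = 0.0048) for Y665F and 0.22 ± 0.16 (adjusted p = 0.901) for Y665H. Cdt1, a licensing factor, read 56, 65.1 and 58.9 CPM in empty-vector cells, 102, 114 and 86.4 CPM with STAT5B and 97.9, 100.3 and 87.1 CPM with N642H, again without overlap. Its log2 fold change was 0.74 ± 0.15 (adjusted p = 0.017) with STAT5B, 0.63 ± 0.15 (adjusted p = 0.009) with N642H and 0.55 ± 0.15 (adjusted p = 0.0237) with Y665F. Cdc20, an activator of the anaphase-promoting complex, rose by 0.70 ± 0.18 (adjusted p = 0.0154) with N642H and by 0.71 ± 0.18 (adjusted p = 0.0164) with Y665F on the log2 scale. The other genes that rose with both N642H and Y665F were Cdc6, Mcm10, Rrm2, Aurkb, Birc5 and Ube2c, each by 0.32 to 0.51. Cdc45, a part of the replicative helicase, rose with Y665F (0.36 ± 0.10, adjusted p = 0.023), and Aurkb and Birc5, of the chromosomal passenger complex, were the other genes that rose with STAT5B.

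Cdkn1b, which encodes p27, was the gene that fell. It read 87.8, 113 and 69.3 CPM with the empty vector, 57.1, 67.3 and 64.2 CPM with N642H and 60.5, 66.3 and 64.2 CPM with Y665F, so every library of both variants lay below every empty-vector library. The log2 fold changes were -0.56 ± 0.14 (adjusted p = 0.0118) and -0.53 ± 0.14 (adjusted p = 0.019). As 1 member of 44 in each comparison, the share that fell was below the 5.97% (N642H) and 4.42% (Y665F) of all genes. The common proliferation label Mki67 did not pass the test with any construct, with log2 fold changes of 0.00 to 0.17, and neither did Mcm2 (0.07 to 0.35), Ccnb1 (0.04 to 0.40) or Cdkn2c (0.01 to 0.13). Cdkn1a, which encodes p21, spread widely among empty-vector libraries (37.8, 62.1 and 186 CPM) and read 143, 187 and 254 CPM with N642H and 133, 217 and 311 CPM with Y665F. Its log2 fold changes were 0.99 ± 0.47 (adjusted p = 0.199) and 1.18 ± 0.47 (adjusted p = 0.133).

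**Figure D1:**
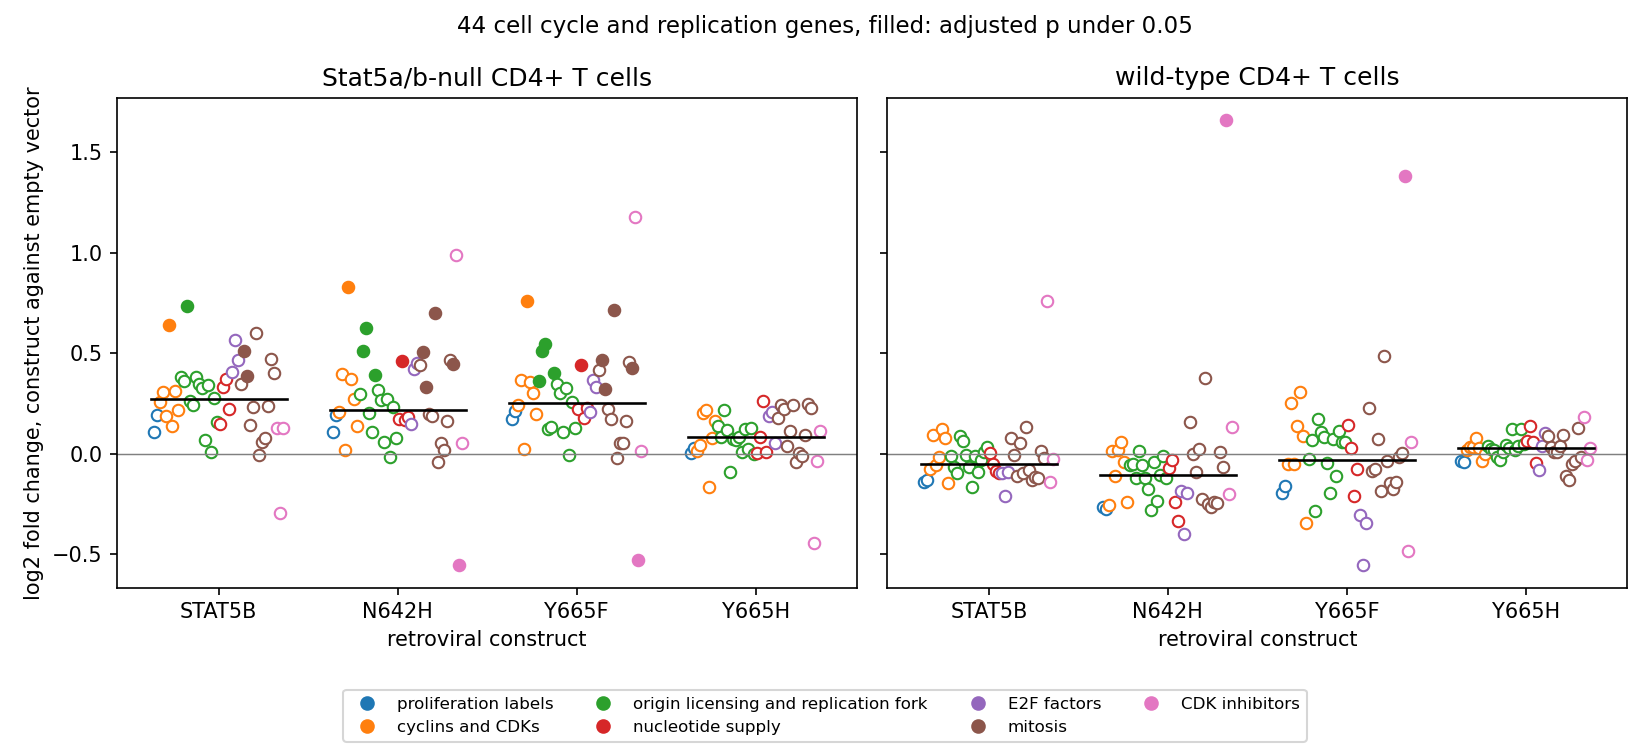
Each point is a member, with its log2 fold change between a construct and the empty vector (vertical axis) by construct and by background (left, null; right, WT; 3 libraries a group), coloured by role and filled where the adjusted p was under 0.05. Black bars are medians over the 44 members: they lie above 0 for STAT5B, N642H and Y665F in null cells, and Cdkn1a is the filled point far above the rest in WT cells.

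No label states a pairing of the CD4+ libraries. The replicate number was taken as one, since same-numbered libraries deviated together from their group means in 30 of 30 pairs in each background. With the replicate number as a block, 22 members rose with STAT5B (5.35% of all genes rose), 21 rose and 1 fell with N642H (9.9% of all genes rose and 10.6% fell), 21 rose and 1 fell with Y665F (9.38% and 8.98%), and 0 changed with Y665H. The block added Ccnb1 (0.40 ± 0.09, adjusted p = 0.00241, with N642H), Mcm2 (0.31 ± 0.08, adjusted p = 0.00701) and Mcm5, a further subunit of the helicase (0.27 ± 0.08, adjusted p = 0.015). With the block Cdkn1a also rose and passed the fold minimum, by 1.23 ± 0.21 (adjusted p = 0.00027) with N642H and by 1.36 ± 0.21 (adjusted p = 0.000124) with Y665F. T-cell markers moved beside these genes in null cells, where 6 of 11 fell with N642H, 5 of 11 with Y665F and 0 of 11 with STAT5B by edgeR without the block. Their sum was 3673 to 3898 CPM with N642H, 3765 to 4314 CPM with Y665F and 4219 to 4429 CPM with STAT5B, all below the 4571 to 5375 CPM with the empty vector. Their part in the result was not tested.

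Set directly against native STAT5B in null cells, 0 members differed with N642H, Y665F or Y665H by edgeR, where 0.0845%, 0.0199% and 0.229% of all genes did. Unadjusted p-values under 0.05 were found for 1, 1 and 10 members, without a share of all genes at that threshold. By DESeq2 0, 0 and 1 members differed. The median log2 differences were -0.04, -0.02 and -0.19. With N642H and Y665F, Mki67, Mcm2, Ccnb1, Ccne1 and Cdkn2c differed from STAT5B by -0.11 to 0.19, Cdkn1b by -0.26 and -0.24, and Cdkn1a by 0.86 ± 0.47 and 1.05 ± 0.47. With Y665H the differences were -0.42 ± 0.16 for Ccne1, -0.28 ± 0.16 for Mcm2, -0.27 ± 0.17 for Ccnb1, -0.10 ± 0.17 for Mki67, -0.57 ± 0.47 for Cdkn1a, 0.26 ± 0.14 for Cdkn1b and -0.01 ± 0.17 for Cdkn2c. With the block, Cdkn1a was higher with Y665F than with STAT5B by 1.06 ± 0.21 (adjusted p = 0.0201) and with N642H by 0.93 ± 0.21 (adjusted p = 0.0372), and 6 members were lower with Y665H than with STAT5B, namely Cdt1, Ccne1, E2f8, Cdc20, E2f2 and Mcm10, against 2.83% of all genes lower with the block (0.403% were higher with Y665F and 0.651% with N642H). Cdt1 differed most among these, by -0.52 ± 0.10 (adjusted p = 0.00421).

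In WT CD4+ T cells, which keep their own Stat5a/b, Cdkn1a was the only member that changed with any construct by edgeR without the block. It read 36.8, 61.7 and 88.5 CPM with the empty vector, 206, 166 and 213 CPM with N642H and 126, 168 and 189 CPM with Y665F. It read 73.5, 115 and 127 CPM with STAT5B and 46.3, 66.5 and 98.5 CPM with Y665H. The N642H and Y665F libraries lay above every empty-vector library, and those of the other 2 constructs overlapped them. The log2 fold changes were 1.66 ± 0.30 (adjusted p = 0.0103) with N642H and 1.38 ± 0.30 (adjusted p = 0.0342) with Y665F. This was 1 member of 44 in each comparison, beside 1% and 0.746% of all genes that rose and 0.79% and 0.507% that were called higher. Without WT empty-vector replicate 1 or 2, or without replicate 1 of either variant or replicate 2 of Y665F in its own comparison, the count was 0, and without Y665F replicate 3 it was 4 at any fold. By DESeq2, Cdkn1a alone changed with N642H, while with Y665F 5 members did, Cdkn1a and Cdc20 (0.49) higher and Cdk2 (-0.35), E2f2 (-0.55) and Cdkn1b (-0.48) lower, against 2.83% of all genes higher and 1.93% lower. With STAT5B and Y665H, 0 members changed by edgeR or DESeq2, with 1 and 0 members at an unadjusted p under 0.05, and 0.00975% and 0.00488% of all genes changed.

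With the block in WT cells, Cdkn1a rose with STAT5B as well (0.80 ± 0.16, adjusted p = 0.00972), with N642H (1.76 ± 0.16, adjusted p = 1.75e-07) and with Y665F (1.43 ± 0.16, adjusted p = 2.97e-06). Cdc20 rose by 0.38 ± 0.10 with N642H and by 0.50 ± 0.10 with Y665F, while E2f2, a transcriptional activator of S-phase genes, fell by 0.40 ± 0.12 (adjusted p = 0.0319) and by 0.55 ± 0.12 (adjusted p = 0.00301). With N642H 2 members were higher and 2 lower with the block, against 4.71% and 3.57% of all genes, and with Y665F 2 were higher and 3 lower, against 6.66% and 5.3%, so the members' shares were close to those of all genes. Tyms, which makes thymidylate, fell with N642H, and Cdk2 and Cdkn1b (-0.48 ± 0.11, adjusted p = 0.00427) fell with Y665F. Mki67 gave log2 fold changes of -0.27 to -0.03, Mcm2 of -0.18 to 0.04, Ccnb1 of 0.01 to 0.25, Ccne1 of -0.02 to 0.14 and Cdkn2c of -0.03 to 0.13 over the 4 constructs, without the block and short of the test.

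Most members were lower in cells that lacked Stat5a/b. Between null and WT cells with the empty vector, 34 of 44 members were lower and 0 were higher, against 7.06% of all genes lower, and 2 were called lower (Cdt1 and E2f2), against 2.13% of all genes. The median over members was -0.53 and that over all genes -0.12. Without WT empty-vector replicate 2 the count at any fold was 14, and without null empty-vector replicate 2 or 3 it was 21 or 20. At the fold minimum it was 0 without WT empty-vector replicate 2 and 1 without null empty-vector replicate 3. Cdt1 read 108, 148 and 122 CPM in WT cells against 56, 65.1 and 58.9 CPM in null cells, a log2 fold change of -1.07 ± 0.16 (adjusted p = 2.22e-05). E2f2 read 226, 285 and 234 CPM against 112, 150 and 106 CPM, a change of -1.02 ± 0.17 (adjusted p = 0.000186). Ccne1 read 90.5, 119 and 80 CPM in WT cells and changed by -0.99 ± 0.16 (adjusted p = 8.41e-05). The groups did not overlap for any of these 3 genes.

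By role, 6 of 7 cyclins and kinases, 10 of 13 genes of licensing and the fork, 3 of 4 of nucleotide supply, 3 of 3 E2F factors, 10 of 12 of mitosis and both proliferation labels were lower in null cells. Mki67 was lower by 0.55 ± 0.18 (adjusted p = 0.0395) on the log2 scale, Mcm2 by 0.58 ± 0.15 (adjusted p = 0.0108) and Ccnb1 by 0.68 ± 0.20 (adjusted p = 0.0235). Of the 3 inhibitors none passed the test, with 0.61 ± 0.43 for Cdkn1a, 0.32 ± 0.14 for Cdkn1b and -0.18 ± 0.19 for Cdkn2c. In the same comparison 5 of 11 T-cell markers were higher and 1 lower, and their part in the result was not tested.

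Whether the constructs acted differently in the 2 backgrounds was tested as an interaction. By edgeR 0 members passed for N642H and 0 for Y665F, beside 0.387% and 0.478% of all genes at an adjusted p under 0.05. DESeq2 gave 11 and 8 members at that threshold. At an unadjusted p under 0.05 edgeR gave 22 and 17 members, without a share of all genes to set beside them. Without the block the log2 difference in response for N642H and Y665F was 0.87 and 0.66 for Ccne1, 0.55 and 0.43 for Mcm2, 0.42 and 0.40 for Mki67 and 0.43 and 0.14 for Ccnb1. It was -0.61 and -0.16 for Cdkn1a and -0.30 and -0.00 for Cdkn1b, and -0.03 and -0.01 for Cdkn2c. With the block 8 members passed for N642H (1.11% of all genes were higher) and 5 for Y665F (1.05%), each with a positive difference of null minus WT. The replicate numbers were then taken as shared by both backgrounds, and whether they pair across backgrounds was not examined. Ccne1 differed by 0.84 ± 0.16 (adjusted p = 0.0026) for N642H and by 0.63 ± 0.16 (adjusted p = 0.0333) for Y665F, and E2f2 by 0.87 ± 0.19 (adjusted p = 0.013) and 0.94 ± 0.19 (adjusted p = 0.0066). For E2f2 the responses had opposite signs, 0.42 in null and -0.40 in WT cells with N642H and 0.36 and -0.55 with Y665F.

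Splenic T cells kept with IL-2 and IL-7 gave the members 0.108 to 0.215% of all CPM, while the activated CD4+ cells with the empty vector gave them 0.873 to 1.53%. The experiments were scaled separately and no test was made between them. Y665F cells with interleukin had more member transcripts than Y665H cells, with 26 members higher and 1 lower (Cdkn1b), against 4% and 2.18% of all genes. Of these 23 were called higher, against 3.43% of all genes. The median over members was 1.43, and over all genes 0.13. Against WT cells, 5 members were higher and 1 lower with Y665F, against 1.26% and 0.614% of all genes (1.15% and 0.381% at the fold minimum, which all 6 passed). For Y665H against WT cells 19 members had an unadjusted p under 0.05, a threshold at which no share of all genes was taken. In that comparison 0 members changed by edgeR, where 0.0762% of all genes did, and 1 changed by DESeq2. The median over members was -0.64. There Mki67 gave -0.44 ± 0.40, Mcm2 -0.48 ± 0.22, Ccnb1 -0.35 ± 0.38, Ccne1 0.14 ± 0.24, Cdkn1a -1.30 ± 0.51, Cdkn1b -0.17 ± 0.21 and Cdkn2c -0.70 ± 0.35.

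Mki67 read 176, 162, 363 and 209 CPM in Y665F cells, 73.9, 63.8, 57.4 and 81 CPM in WT cells and 9.42, 80.2, 77.6 and 36.2 CPM in Y665H cells. Every Y665F library lay above every library of the other 2 alleles. The log2 fold change was 1.72 ± 0.40 (adjusted p = 0.0265) against WT and 2.16 ± 0.41 (adjusted p = 0.00223) against Y665H. Cdc6, which loads the helicase, read 17.2, 12.7, 19.8 and 20.3 CPM in Y665F, 3.91, 8.63, 8.28 and 6.16 CPM in WT and 2.86, 1.46, 4.38 and 2.38 CPM in Y665H cells, again without overlap. Its log2 fold change was 1.36 ± 0.30 (adjusted p = 0.0185) against WT and 2.53 ± 0.33 (adjusted p = 8.31e-05) against Y665H.

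The other members higher than in WT cells were Cenpf (1.64 ± 0.39, adjusted p = 0.0271) and Cenpe (1.45 ± 0.34, adjusted p = 0.0271), both of the kinetochore, and Ccna2, the cyclin of S phase and G2 (1.24 ± 0.28, adjusted p = 0.0231). This set rested on few libraries: the number of members that changed was 1 without Y665F replicate 4, 2 without Y665F replicate 3 or WT replicate 2, and 3 without WT replicate 3 or 4. DESeq2 gave 18 higher and 1 lower at the fold minimum. Mki67 itself did not pass without WT replicate 2, 3 or 4 or without Y665F replicate 3 (1.40, adjusted p = 0.0939) or 4 (1.76, adjusted p = 0.0712). Mcm2 (0.01 ± 0.22), Ccnb1 (0.57 ± 0.35), Ccne1 (-0.13 ± 0.23) and Cdkn2c (-0.21 ± 0.33) did not differ past the test from WT. In the same contrast 5 of 7 neutrophil and 3 of 13 erythroid markers were higher and 3 of 11 T-cell markers lower, with neutrophil sums of 74.9 to 311 CPM in Y665F and 9.73 to 17.3 CPM in WT cells, and their part in the result was not tested. Without both Y665F replicate 3 and Y665H replicate 1, whose Mki67 value was the lowest, 6 were higher and 1 lower.

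Cdkn1b was the member that fell against both alleles. It read 223, 229, 151 and 144 CPM in Y665F cells with interleukin, 404, 419, 430 and 414 CPM in WT cells and 281, 416, 453 and 336 CPM in Y665H cells. The Y665F libraries were below all others, by -1.16 ± 0.21 (adjusted p = 0.00581) against WT and -0.99 ± 0.21 (adjusted p = 0.00515) against Y665H. Against WT the call held in every fit that left out libraries, and against Y665H, where the change was short of the fold minimum, it did not pass the test without the 3 shallowest libraries (-0.94, adjusted p = 0.0599). Cdkn1a went the opposite way, with 5.59, 3.75, 3.96 and 9.54 CPM in Y665F, 2.83, 2.31, 2.14 and 1.31 CPM in WT and 0.286, 0.972, 1.32 and 0.548 CPM in Y665H cells. The Y665F libraries lay above all others, and the lowest WT library lay just below the highest Y665H library. Its log2 fold change was 2.73 ± 0.51 (adjusted p = 0.0017) against Y665H and 1.43 ± 0.43 (adjusted p = 0.0827) against WT. The values of Y665H replicates 1, 2 and 4 rest on a few reads, and replicate 4 appears to pool replicates 1 and 2. The size of the change against Y665H is therefore uncertain.

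**Figure D2:**
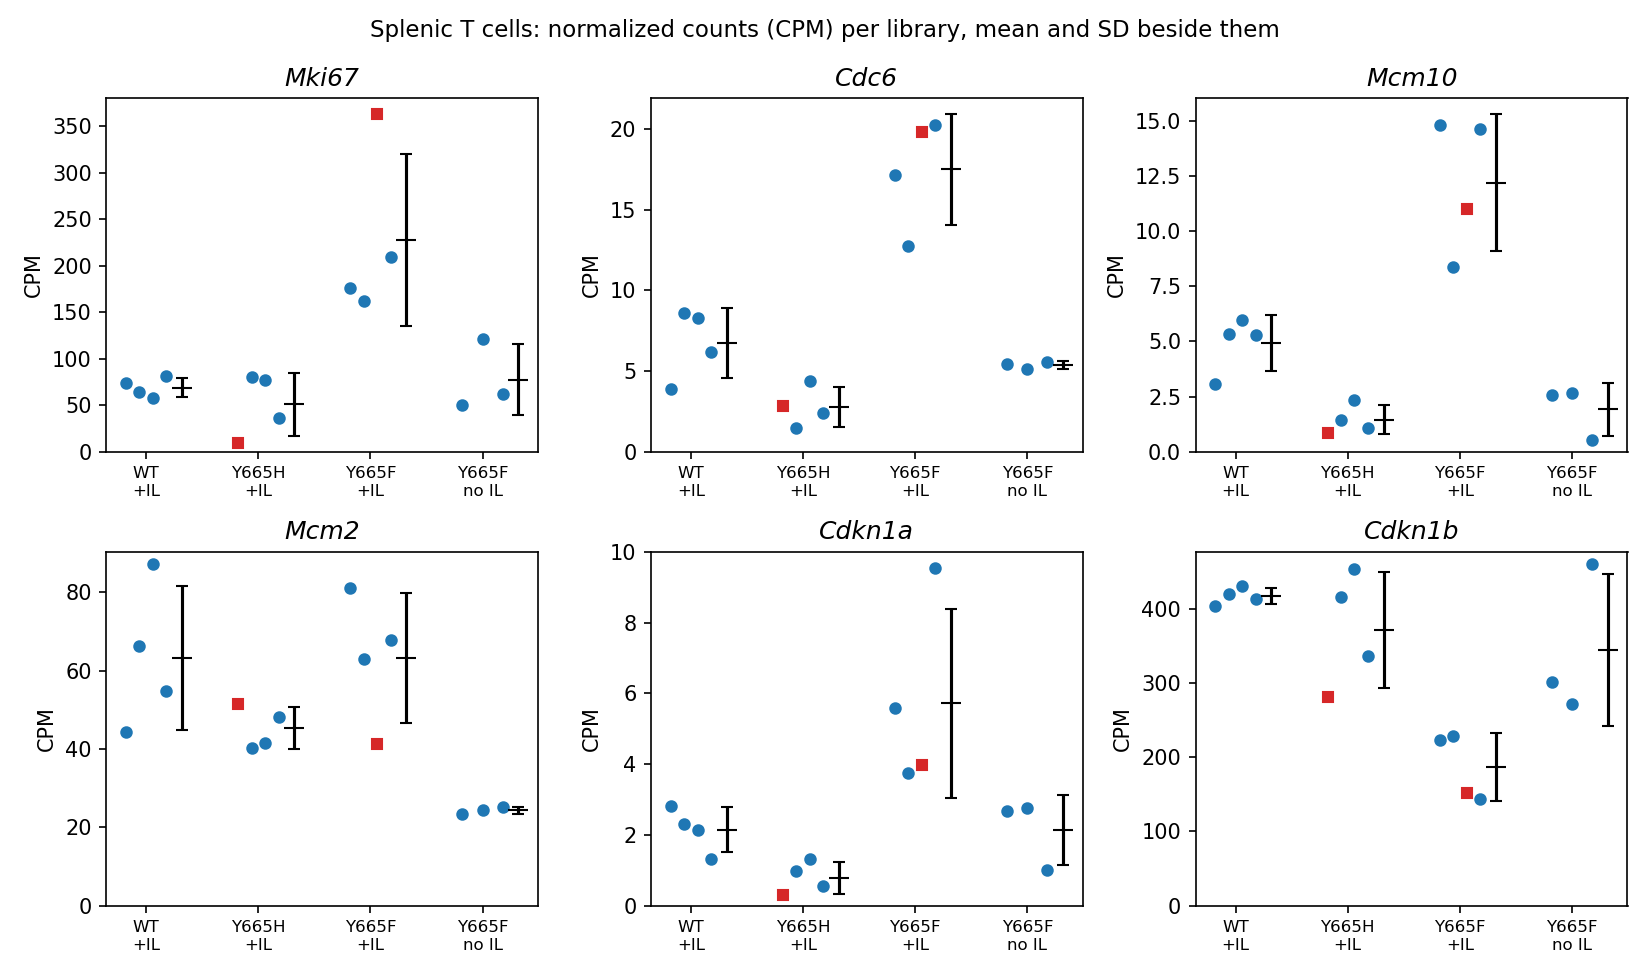
Normalized counts (CPM, vertical axis from 0) of 6 members in each splenic T-cell library, by allele and interleukin, with the mean and SD at the right of each group. Red squares are Y665F replicate 3 and Y665H replicate 1: Cdc6 and Mcm10 are highest in Y665F cells with interleukin, and Cdkn1b is lowest there, also without the red squares.

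Against Y665H the rise covered 10 of 12 genes of mitosis (9 called), 6 of 13 of licensing and the fork, 3 of 7 cyclins and kinases, 3 of 4 of nucleotide supply, 1 of 3 E2F factors, both proliferation labels and Cdkn1a. The largest change was that of Mcm10, which helps to start the fork, with 14.8, 8.36, 11 and 14.6 CPM in Y665F against 0.857, 1.46, 2.36 and 1.1 CPM in Y665H cells and a log2 fold change of 2.95 ± 0.45 (adjusted p = 0.000301). At 3310342 and 2017012 reads on genes, the values of Y665H replicates 1 and 2 stand for a few reads each. Replicate 4 appears to pool these reads, so the size of this change is uncertain. E2f8, a repressor of the E2F family, read 4.45, 3.26, 8.23 and 7.84 CPM in Y665F cells, while 3 of 4 Y665H libraries had 0 reads of it and the fourth had 30 reads (2.09 CPM). Its log2 fold change (2.80 ± 0.69, adjusted p = 0.0152) therefore depends on how zeros were handled. Mcm2 (0.49 ± 0.22, adjusted p = 0.205), Ccnb1 (0.92 ± 0.39, adjusted p = 0.17), Ccne1 (-0.27 ± 0.24, adjusted p = 0.526) and Cdkn2c (0.50 ± 0.35, adjusted p = 0.425) did not pass. Leaving out any library left 22 to 26 members changed, and leaving out Y665F replicate 3 and Y665H replicate 1 together left 24. Without the 3 libraries of fewest reads 18 changed. These fits could not test the weight of Y665H replicates 1, 2 and 4, since replicate 4 appears to pool replicates 1 and 2. Leaving out 1 of these, or both shallow ones, kept their reads in the fit. The other called members rose by 1.05 (Mcm5) to 2.15 (Cenpe), with Cenpf at 2.13, Bub1 at 2.10, Aurkb at 2.05, Top2a at 2.04, Cdk1 at 1.96, Ube2c at 1.93 and Aurka at 1.87. Birc5 (1.80), Kif11 (1.79), Ccna2 (1.77), Gins1 (1.71), Bub1b (1.61), Rrm2 (1.58), Ccne2 (1.46), Cdc45 (1.46) and Tyms (1.41) lay between.

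Markers of other cells moved in the same contrast. Of B-cell markers 5 of 8 were higher in Y665F than in Y665H cells, of erythroid markers 5 of 13 and of NK-cell markers 4 of 4, while 2 of 11 T-cell markers were lower. The sum of B-cell markers ranged from 19.8 to 713 CPM in Y665F cells and from 18 to 34.5 CPM in Y665H cells, that of NK-cell markers from 160 to 251 and from 53.1 to 111 CPM, and that of T-cell markers from 1275 to 3214 and from 3561 to 4240 CPM. The sums of granulocyte-precursor (3.02 to 6.64 against 0.857 to 1.46 CPM), plasma-cell (10.4 to 53 against 2.92 to 8.97 CPM) and megakaryocyte markers (10.98 to 18 against 5.35 to 9.71 CPM) were also higher in every Y665F library than in every Y665H library. The part of the markers in the result was not tested.

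In Y665F cells 18 members were higher and 1 lower (Cdkn1b) with interleukin than without it, against 2.94% and 0.91% of all genes. Of these 16 were called higher, against 2.27% of all genes. The study methods give a culture only for cells with interleukin, so culture and cytokine cannot be told apart. The median was 1.11 over members and -0.13 over all genes. Without Y665F replicate 1 with interleukin, or replicate 3 without it, 10 were called. By role, 9 of 13 genes of licensing and the fork, both proliferation labels, 2 of 7 cyclins and kinases, 2 of 4 of nucleotide supply, 1 of 3 E2F factors and 2 of 12 of mitosis were higher. Mcm2 read 81.1, 63, 41.2 and 67.7 CPM with interleukin and 23.4, 24.3 and 25.2 CPM without it, groups that did not overlap (1.39 ± 0.24, adjusted p = 0.000954). Mcm5 rose by 1.84 ± 0.29 (adjusted p = 0.000349), Mcm10 by 2.69 ± 0.46 (adjusted p = 0.00072), Top2a, which untangles replicated DNA, by 2.03 ± 0.39 (adjusted p = 0.00204), and Rrm2, a subunit of ribonucleotide reductase, by 2.00 ± 0.32 (adjusted p = 0.000414). The other called members were Cdk1 (1.81), Cdc6 (1.69), E2f1 (1.66), Ccna2 (1.62), Kif11 (1.61), Birc5 (1.48), Gins1 (1.48), Cdc45 (1.44), Mcm3 (1.12) and Rrm1 (1.07). Of NK-cell markers 2 of 4 were higher, and of T-cell markers 1 of 11 was higher and 2 lower, and their part in the result was not tested.

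Mki67 changed by 1.55 ± 0.44 (adjusted p = 0.0495) with interleukin, and it no longer passed without Y665F replicate 1, 3 (1.23, adjusted p = 0.089) or 4 with interleukin or replicate 1 or 3 without it, nor by DESeq2 (1.47, adjusted p = 0.0958). Cdkn1b read 301, 271 and 461 CPM without interleukin, above all 4 libraries with it, and changed by -0.88 ± 0.22 (adjusted p = 0.0224), short of the fold minimum. It did not pass without Y665F replicate 4 with interleukin (-0.77, adjusted p = 0.079), without replicate 3 without it (-0.61, adjusted p = 0.182) or without the 3 shallowest libraries (-0.78, adjusted p = 0.051). Ccnb1 (0.94 ± 0.40), Ccne1 (0.47 ± 0.26), Cdkn1a (1.44 ± 0.48, adjusted p = 0.101) and Cdkn2c (-0.17 ± 0.36) did not pass. Cells of the other 2 alleles without interleukin were not analysed here, so whether the alleles differ in their response to it was not tested.

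In the spleens the order of the alleles was another. Y665H spleens had higher levels of 43 of 44 members than WT spleens, all but Cdkn1a, against 10.7% of all genes, and 33 were called, against 3.93%. The median over members was 1.26, and over all genes 0.00. Y665F spleens differed from WT in E2f1 and Cdkn1a, both higher, with a median of 0.18 over members. These 2 of 44 members were no larger a share than the 5.63% of all genes that were higher. Y665F against Y665H spleens gave 43 members lower and 1 higher (Cdkn1a), against 15.3% and 10.5% of all genes, and 26 called lower, against 4.01%, with a median of -1.05. These 3 comparisons share libraries pairwise.

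Mki67 read 1211, 5323, 4597, 3333 and 5344 CPM in Y665H spleens against 1689, 847, 1507 and 757 CPM in WT spleens, while the 7 Y665F spleens ranged from 671 over a median of 1272 to 1971 CPM. Y665H replicate 1 lay inside the WT range, and the other 4 lay above every WT and Y665F spleen. The log2 fold change between Y665H and WT was 1.72 ± 0.39 (adjusted p = 0.00534), and without Y665H replicate 1 it was 1.99. For Y665F against WT it was 0.08 ± 0.35 (adjusted p = 0.911). Ccnb1, the cyclin of mitotic entry, read 33.2, 121, 128, 97.8 and 115 CPM in Y665H and 47.4, 24.8, 56.9 and 26.9 CPM in WT spleens, with the same replicate among the WT values (1.34 ± 0.37, adjusted p = 0.0152). Mcm2 read 78.5, 198, 184, 138 and 159 CPM against 64.8, 45.2, 101 and 59.2 CPM (1.16 ± 0.25, adjusted p = 0.00451), and Ccne1 34.6, 94.6, 83.1, 58.9 and 74.7 CPM against 39, 28.3, 45.2 and 32.1 CPM (0.94 ± 0.22, adjusted p = 0.00702).

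The largest rises in Y665H against WT spleens were those of E2f8 (1.89 ± 0.37, adjusted p = 0.00279), Mki67 and Ube2c, the ubiquitin-conjugating enzyme of mitotic exit (1.72 ± 0.39, adjusted p = 0.0054). By role 12 of 12 genes of mitosis, 3 of 3 E2F factors, 4 of 4 of nucleotide supply, both proliferation labels, 5 of 7 cyclins and kinases and 6 of 13 genes of licensing and the fork were called. Among the called genes of mitosis were the kinases Plk1 (1.59 ± 0.28, adjusted p = 0.00187), Aurka (1.49 ± 0.31, adjusted p = 0.00342) and Aurkb (1.38 ± 0.23, adjusted p = 0.0016), the checkpoint genes Bub1 (1.17 ± 0.29, adjusted p = 0.00839) and Bub1b (1.10 ± 0.21, adjusted p = 0.00232), and the motor Kif11 (1.38 ± 0.33, adjusted p = 0.0068). The helicase subunits rose by 0.70 ± 0.20 (Mcm4, adjusted p = 0.0203) to 1.16 (Mcm2), with Mcm6 at 0.74, Mcm3 at 0.84, Mcm7 at 0.99 and Mcm5 at 1.03. Called as well were Cenpf (1.71), Birc5 (1.65), Ccnb2 (1.65), E2f2 (1.60), Rrm2 (1.60), Cdc6 (1.58), Cenpe (1.49) and Ccna2 (1.48), with Cdk1 between Cdc6 and Cenpe. Cdc20 (1.31), Ccne2 (1.30), Top2a (1.28), Mcm10 (1.28), Tk1 (1.24), Tyms (1.22), Cdc45 (1.18), Kif20a (1.08), Gins2 (1.04) and Rrm1 (1.03) followed. The sliding clamp Pcna rose by 0.81 ± 0.23 (adjusted p = 0.0181) and Cdk2 by 0.52 ± 0.10 (adjusted p = 0.00234).

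The inhibitors split. Cdkn2c, which encodes p18, read 18.9, 46.8, 50.4, 39.9 and 46.1 CPM in Y665H against 19, 13.6, 22.1 and 15.6 CPM in WT spleens and rose with the rest (1.20 ± 0.23, adjusted p = 0.00265). Cdkn1b read 118, 156, 149, 145 and 164 CPM against 117, 125, 117 and 125 CPM, a small rise of 0.27 ± 0.07 (adjusted p = 0.0151). Cdkn1a read 3.34, 3.54, 2.31, 2.34 and 3.58 CPM in Y665H, 3.07, 3.31, 3.72 and 3.06 CPM in WT and 3.73 to 6.72 CPM (median 5.25 CPM) in Y665F spleens. Every Y665F spleen lay above every WT and Y665H spleen for this gene, the lowest only just above the highest WT spleen, with log2 fold changes of 0.70 ± 0.16 (adjusted p = 0.0108) against WT and 0.82 ± 0.15 (adjusted p = 0.000887) against Y665H.

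E2f1 was the other member that differed between Y665F and WT spleens. It read 6.26, 5.4, 9.98 and 6.53 CPM in WT, 11.2 to 17 CPM (median 13.1 CPM) in Y665F and 13.8, 27.9, 27.3, 19.4 and 26.1 CPM in Y665H spleens. The WT spleens lay below all others, Y665H replicate 1 included. The log2 fold change was 0.96 ± 0.20 (adjusted p = 0.00496) for Y665F and 1.70 ± 0.21 (adjusted p = 0.000505) for Y665H. The largest falls of Y665F against Y665H were those of Ube2c (-1.65 ± 0.32, adjusted p = 0.00126), Mki67 (-1.64 ± 0.32, adjusted p = 0.0013) and Cenpf (-1.49 ± 0.27, adjusted p = 0.000812). Ccnb1 (-1.30 ± 0.31, adjusted p = 0.00459), Cdkn2c (-1.17 ± 0.19, adjusted p = 0.000414), Mcm2 (-0.83 ± 0.21, adjusted p = 0.00833), Ccne1 (-0.82 ± 0.19, adjusted p = 0.0037) and Cdkn1b (-0.21 ± 0.06, adjusted p = 0.0232) were lower as well. Also called lower were Rrm2 (-1.46), Ccna2 (-1.42), Ccnb2 (-1.42), E2f8 (-1.41), Cdc6 (-1.40), Birc5 (-1.38), Ccne2 (-1.36), Cdk1 (-1.33), Cenpe (-1.29), Kif11 (-1.26) and E2f2 (-1.25). Aurka (-1.24), Plk1 (-1.22), Tyms (-1.11), Top2a (-1.09), Mcm10 (-1.08), Aurkb (-1.06), Bub1 (-1.04), Rrm1 (-1.04), Cdc20 (-1.03) and Gins1 (-1.01) completed the list. Against WT, Y665F spleens gave 0.34 ± 0.23 for Mcm2, 0.05 ± 0.33 for Ccnb1, 0.11 ± 0.21 for Ccne1, 0.06 ± 0.07 for Cdkn1b and 0.03 ± 0.21 for Cdkn2c, none past the test.

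**Figure D3:**
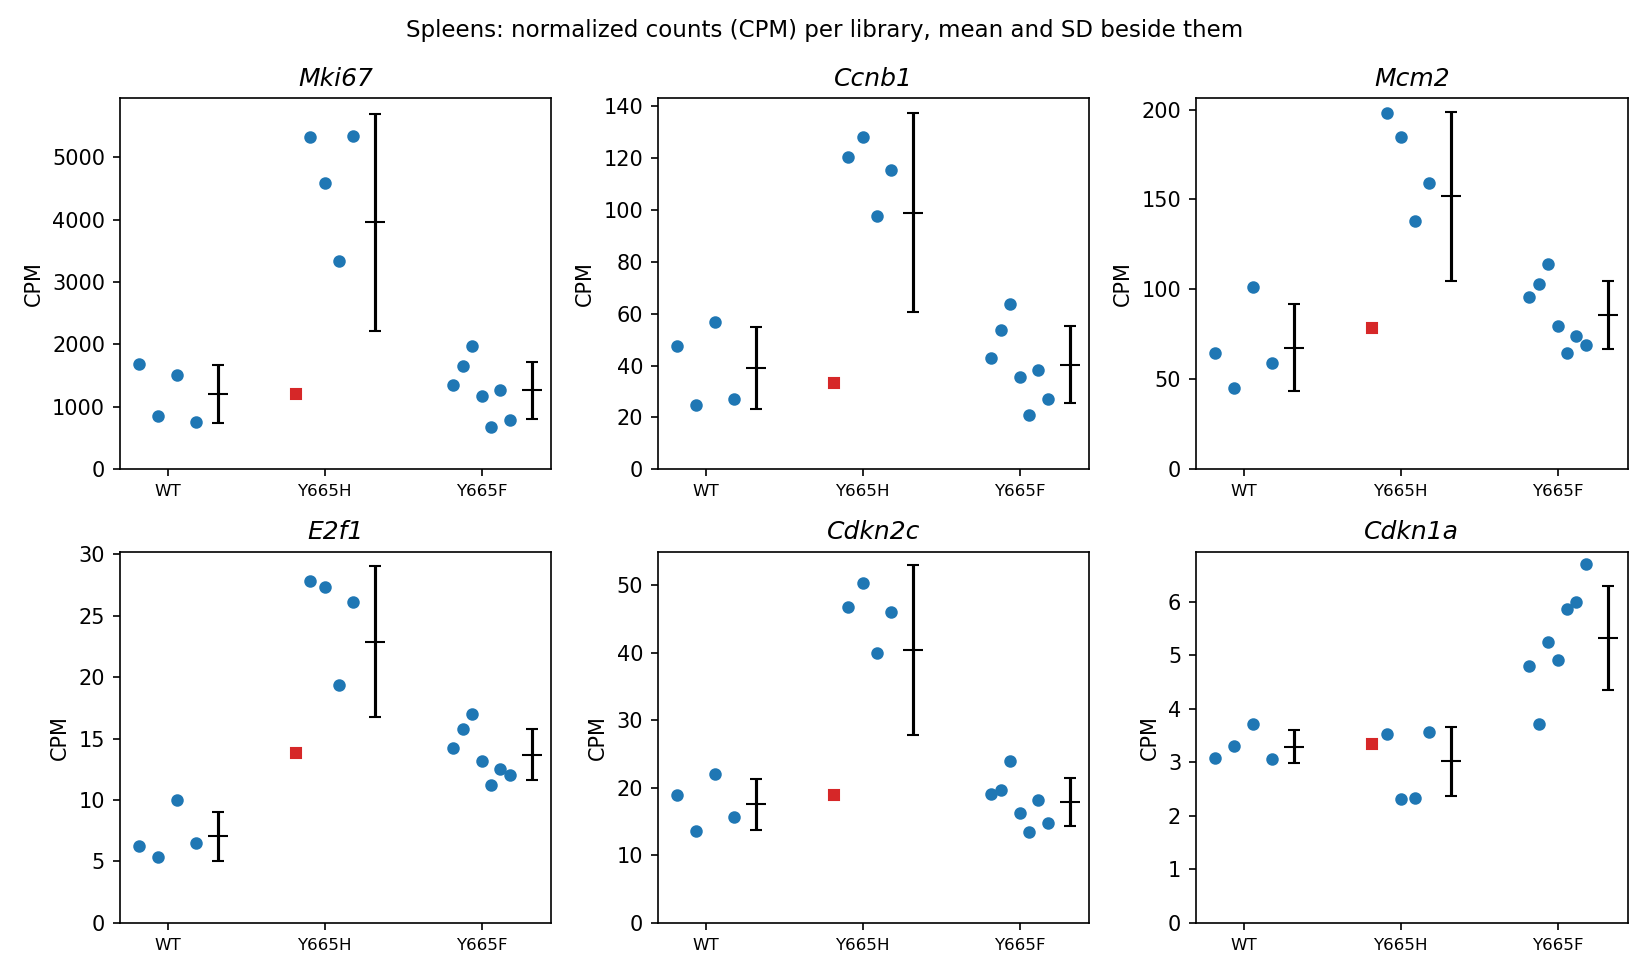
Normalized counts (CPM, vertical axis from 0) of 6 members in each spleen library by allele, with the mean and SD at the right of each group. The red square is Y665H replicate 1, which sits among the WT spleens for Mki67, Ccnb1, Mcm2 and Cdkn2c but above them for E2f1, and Cdkn1a is highest in Y665F spleens.

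Leaving out Y665H replicate 1 raised the number of members called higher in Y665H than in WT spleens from 33 to 38 and that called lower in Y665F than in Y665H from 26 to 33. Markers of several cell types rose with the members in Y665H against WT spleens, namely 12 of 13 erythroid, 5 of 5 granulocyte-precursor, 6 of 7 neutrophil, 5 of 5 plasma-cell and 2 of 5 germinal-centre B-cell markers, while 7 of 11 T-cell and 4 of 4 NK-cell markers fell. The erythroid sum ranged from 1626 to 9784 CPM in Y665H, from 1289.5 to 2943 CPM in WT and from 867 to 3100.45 CPM in Y665F spleens. The neutrophil sum ranged from 114 to 1486, from 192 to 310 and from 366 to 907 CPM. In Y665H replicate 1, which had WT-like levels of most members, the neutrophil sum was the 114 CPM at the low end. In Y665F spleens 4 of 5 granulocyte-precursor, 3 of 7 neutrophil, 4 of 5 megakaryocyte and 7 of 11 T-cell markers were higher than in WT. Against Y665H, Y665F spleens had 13 of 13 erythroid, 5 of 5 plasma-cell and 5 of 5 germinal-centre B-cell markers lower and 11 of 11 T-cell markers higher. The part of these markers in the member results was not tested beyond the fits with Alas2.

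Member levels were therefore set against Alas2, the erythroid form of the first enzyme of heme synthesis. Alas2 read 205, 919, 1553, 1089 and 1153 CPM in Y665H, 518, 380, 712 and 529 CPM in WT and 157 to 433 CPM (median 248 CPM) in Y665F spleens. Y665H replicate 1 was lower than every WT spleen, and the other 4 were above all. With the allele and log2 CPM of Alas2 in 1 model over the 16 spleens, 43 of 44 members rose with Alas2 within alleles, against 11% of all genes, and the member that did not pass was Cdkn1a (-0.17 ± 0.09 per log2 unit of Alas2, adjusted p = 0.202). The median slope over members was 0.52 log2 units per log2 unit of Alas2, and over all genes -0.01. Without Y665H replicate 1 the count was 33 and the median slope 0.56. The slope was shared by the alleles, and the Y665H spleens other than replicate 1 showed no steady rise. Their mean log2 CPM of the 41 members other than the inhibitors was 7.17, 6.70, 7.08 and 7.12. The log2 CPM of Alas2 was 9.85, 10.09, 10.17 and 10.60 in the same order.

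The slopes differed among members. Ube2c (0.84 ± 0.10, adjusted p = 1.35e-05), Rrm2 (0.83 ± 0.10, adjusted p = 1.71e-05) and Ccna2 (0.82 ± 0.10, adjusted p = 1.71e-05) had the highest, and Mki67 (0.79 ± 0.12, adjusted p = 0.000101) and Ccnb1 (0.78 ± 0.09, adjusted p = 6.77e-06) lay close to them. Mcm2 (0.50 ± 0.07, adjusted p = 7.21e-05), Cdkn2c (0.50 ± 0.05, adjusted p = 3.77e-06) and Ccne1 (0.44 ± 0.07, adjusted p = 0.000174) lay near the median, and Mcm3 (0.33 ± 0.05), Cdk2 (0.17 ± 0.03) and Cdkn1b (0.10 ± 0.03, adjusted p = 0.0498) had the lowest slopes of the 43 that passed. Cdkn1b had a slope of 0.00096 (adjusted p = 0.997) without Y665H replicate 1. Along the same slope 13 of 13 erythroid, 7 of 7 neutrophil and 5 of 5 granulocyte-precursor markers rose, and 8 of 8 B-cell and 10 of 11 T-cell markers fell, so a rise with Alas2 was shared by other lineages.

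With log2 CPM of Alas2 as a covariate in the comparisons of alleles, 43 members were still higher in Y665H than in WT spleens, against 9.78% of all genes, with a median of 0.83 in place of 1.26, and 12 were called in place of 33, against 1.87%. E2f1 kept 1.44 and Mki67 1.10 on the log2 scale. Between Y665F and WT spleens, 41 members were then higher, while 2 were without Alas2 in the model, against 10.2% of all genes higher, with a median of 0.71 in place of 0.18. Between Y665F and Y665H spleens, 0 members then changed by edgeR in place of 44, where 2.89% of all genes were higher and 2.55% lower. The median was -0.11 in place of -1.05, and 5 members had an unadjusted p under 0.05. Alas2 differs between these alleles (-1.80 ± 0.34 in Y665F against Y665H, adjusted p = 0.00114), so its part and that of the allele cannot be fully told apart.

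**Figure D4:**
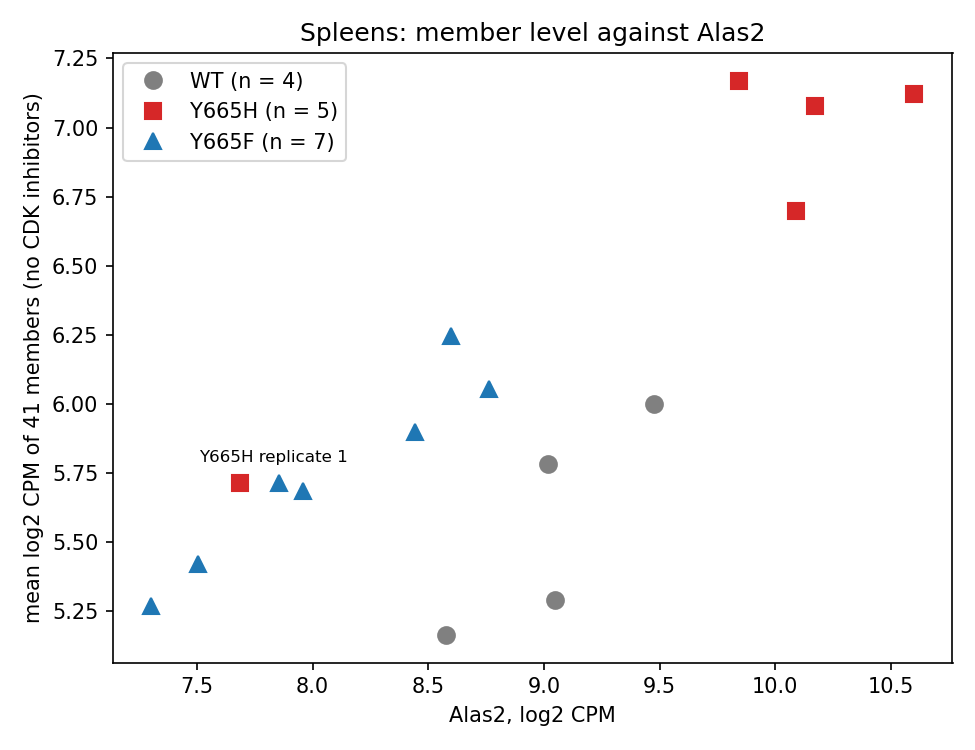
Each point is a spleen, with the mean log2 CPM of the 41 members other than the inhibitors (vertical axis) against log2 CPM of Alas2 (horizontal axis), by allele. Member levels rise with Alas2 over the WT and the Y665F spleens, 4 Y665H spleens lie apart at the upper right, and Y665H replicate 1 lies among the Y665F spleens.

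The contrast of Y665F with Y665H thus had opposite signs in the 2 settings, and their difference was tested in 1 model over the splenic T cells with interleukin and the spleens, a test chosen after the values were seen. The difference passed for 38 of 44 members, 37 in the direction of T cells and 1 (Cdkn1b) in the other, against 8.43% and 7.6% of all genes, and 35 were called, against 6.92%. The median difference was 2.27 over members and 0.10 over all genes. It was 3.76 ± 0.55 (adjusted p = 1.68e-05) for Mki67, 3.92 ± 0.46 (adjusted p = 7.09e-07) for Mcm10, 3.80 ± 0.53 (adjusted p = 9.81e-06) for Cdc6 and 3.84 for E2f8. It was 1.26 ± 0.34 (adjusted p = 0.0103) for Mcm2, 2.14 ± 0.55 (adjusted p = 0.00682) for Ccnb1, 1.66 ± 0.39 (adjusted p = 0.00376) for Cdkn2c and 1.84 ± 0.44 (adjusted p = 0.00381) for Cdkn1a. Ccne1 (0.51 ± 0.31, adjusted p = 0.281), Cdk2, Cdt1, Mcm7, Pcna and Tk1 did not pass. All 12 genes of mitosis were called, at 1.75 (Kif20a) to 3.53 (Cenpf), with 5 of 7 cyclins and kinases and 8 of 13 genes of licensing and the fork. Cdkn1a was higher in Y665F than in Y665H in both settings, and Cdkn1b lower in both, with the larger difference in T cells (the difference between settings for Cdkn1b was -0.82 ± 0.18, adjusted p = 0.00165). Without Y665F replicate 3 and Y665H replicate 1 of the T cells and Y665H replicate 1 of the spleens, 43 members passed. Y665H T-cell replicate 4, which appears to pool replicates 1 and 2, counted as a separate library, so these p-values may be too small. Leaving out T-cell replicate 1 therefore kept its reads in the fit. In the same test 9 of 13 erythroid markers differed in the direction of the members and 11 of 11 T-cell markers in the other, and their part in the result was not tested. The 2 settings differ in cell makeup, culture and cytokine, which cannot be told apart here.

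**Figure D5:**
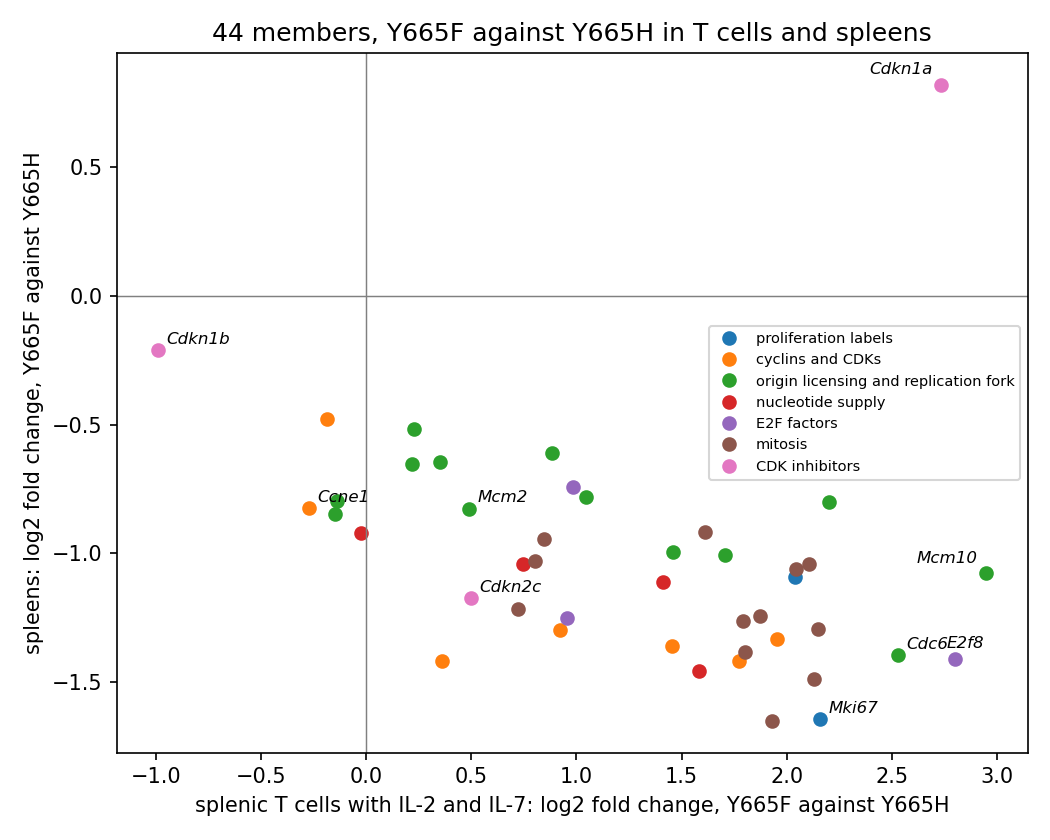
Each point is a member, coloured by role, with its log2 fold change of Y665F against Y665H in splenic T cells with interleukin (horizontal axis) and in spleens (vertical axis). Most members lie to the right of 0 and below 0, Cdkn1a alone is above 0 in both, and Cdkn1b is below 0 in both.

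A wider list of 77 other cell cycle genes, none of them members, moved the same way as the members in most comparisons. In Y665H against WT spleens 67 rose and 1 fell, where 10.7% of all genes rose. The rises were led by Mybl2 (1.94, adjusted p = 0.00168), Kif18b (1.85, adjusted p = 0.00187) and E2f7 (1.70, adjusted p = 0.00116). In Y665F against Y665H T cells 32 were higher and 2 lower, against 4% and 2.18% of all genes. The rises were led by E2f7 (2.81, adjusted p = 0.00805), Cdca5 (2.78, adjusted p = 0.00238) and the checkpoint kinase Chek1 (2.69, adjusted p = 3.57e-05). With interleukin in Y665F T cells 24 rose and 2 fell, against 2.94% and 0.91% of all genes. The rises were led by Uhrf1 (3.80) and Cdk6 (3.74, both adjusted p = 3.29e-07), with Cdc25b, a phosphatase that activates cyclin-dependent kinases, the largest fall (-2.02, adjusted p = 2.56e-06). In null against WT CD4+ cells with the empty vector 39 were lower, against 7.06% of all genes, and Ccnd3, a D-type cyclin, was called (-1.39, adjusted p = 1.43e-05). In null cells 12 rose with N642H, 11 with Y665F and 2 with STAT5B, against 5.67%, 5.16% and 0.95% of all genes. With Y665H 0 rose by edgeR, where 2 had an unadjusted p under 0.05 and 0.0249% of all genes changed.

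Histone genes, whose transcripts accompany DNA synthesis, moved with the members in spleens and not in splenic T cells. Of 57 tested, 55 rose in Y665H against WT spleens, with a median of 1.91, against 10.7% of all genes. In Y665F against Y665H spleens 51 were lower, against 15.3% of all genes. In splenic T cells, of 56 tested, 1 was higher and 1 lower in Y665F than in Y665H cells, against 4% and 2.18% of all genes, with a median of 0.02. With interleukin 0 changed by edgeR, where 2.94% of all genes were higher and 0.91% lower, and 8 had an unadjusted p under 0.05. In CD4+ cells with the empty vector 22 of 57 were lower and 1 higher in null than in WT cells, with a median of -1.09, where 7.06% of all genes were lower. Most of these genes are near-identical copies of one another, so the reads of single histone genes are uncertain.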

How the data were processed

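Total RNA-seq was made with a stranded, ribosomal-RNA-depleting kit. Per the labels and methods, the authors trimmed reads with Trimmomatic 0.36, aligned them to mm10 with STAR and counted them per gene with HTSeq 0.9.1. The deposited files hold raw counts for 24421 symbols. The annotation and strand setting are not given in the sources used here. The 5 closing lines for reads without a gene (28 to 86% of all reads and lines) were left out. Groups came from the labels. The genotype entry of all CD4+ libraries names floxed Stat5a/b, so the background came from titles. The study describes the CD4+ libraries as independent biological replicates of cells from pooled tissue. For splenic T cells and spleens the labels do not say whether libraries came from separate animals, so p-values measure the spread between libraries. None of the 61 libraries was identical to another, a check that cannot find pooled reads. Y665H splenic T-cell replicate 4 matched the total reads on genes of replicates 1 and 2, and appears to pool them.

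Counts were fitted in R 4.3.3 with edgeR 4.0.16 (TMM, glmQLFit, glmQLFTest; genes with at least 10 reads over a fit) in 5 fits, null, WT and both CD4+ backgrounds, splenic T cells and spleens, each with all its groups. The slope on Alas2 and the Alas2 covariate used the same model with an added term. The interaction tests were contrasts of group means in the fit of both CD4+ backgrounds. P-values were adjusted by Benjamini-Hochberg over all genes. SE is the size of the log2 fold change over the square root of F. The members, lists and tests were chosen with earlier results of these data known. Mki67, Mcm2, Ccnb1, Ccne1, Cdkn1a, Cdkn1b and Cdkn2c are named in every comparison, with the 3 largest changes each way and all called members. The study's RUVSeq step was not used. Same-numbered CD4+ libraries deviated together in 30 of 30 pairs (median correlation 0.465 in null, 0.635 in WT, lowest 0.100), so the number served as a block beside those results. A contrast from each of the 5 fits and the slope on Alas2 were tested on simulated libraries drawn independently. The interactions, the block, the Alas2 covariate, DESeq2 and the test between T cells and spleens were not. DESeq2 1.42.0, RLE size factors, no filter and leaving out libraries were alternatives. A test of the mutant contrast between T cells and spleens, and fits without libraries that stood apart, were chosen after seeing the data.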

Additional observations from a re-analysis of the deposited data

Results flagged for a closer look

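Alas2 in splenic T cells of Y665F mice with interleukin stood far from its group in replicate 3, at 530 CPM against 56.7 CPM in the nearest library, and its Mki67 (363 CPM) and E2f2 (42.4 CPM) were the highest of the group. Of 48 pairs of gene and group examined in this way, 1 was set apart, and chance sets apart about 1 in 20.

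The contrast of Y665F with Y665H differed between splenic T cells with interleukin and spleens for 38 of the 44 members, with opposite signs for most of them.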

How the results depend on the processing

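With no fold minimum the number of members called was 4 for STAT5B, 10 for N642H and 11 for Y665F against the empty vector in null CD4+ cells, 34 between null and WT cells with the empty vector, 2 between Y665F and WT spleens and 44 between Y665F and Y665H spleens. With the replicate block it was 1 for N642H and 1 for Y665F against the empty vector in null cells, 1 for Y665F against STAT5B and 1 for Y665F against WT spleens. Without a filter on low counts it was 1 between null and WT cells with the empty vector. By DESeq2 it was 19 for Y665F and 1 for Y665H against WT splenic T cells. With Alas2 as a covariate it was 2 for Y665F and 12 for Y665H against WT spleens and 0 for Y665F against Y665H spleens, where Ccnb1 (0.032), Cdt1 (0.10), Mcm2 (0.0080), Mcm4 (0.051) and Mcm6 (0.064) changed sign, none past the test. At any fold DESeq2 gave 16, 17 and 15 members for STAT5B, N642H and Y665F in null cells, and RLE size factors gave 5, 15 and 12. For Y665F in WT cells DESeq2 gave 5 where edgeR gave 1. RLE size factors left every count of called members within 1.5 times. The causes were not tested.

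When a library was left out, the count ranged from 0 to 1 for N642H and for Y665F in null cells and in WT cells, 0 to 3 between null and WT cells with the empty vector, 0 to 2 for the Y665F response in null against WT, 1 to 7 for Y665F and 0 to 1 for Y665H against WT splenic T cells, 21 to 24 for Y665F against Y665H splenic T cells, 10 to 18 with against without interleukin, 0 to 1 for Y665F against WT spleens, 27 to 38 for Y665H against WT spleens, 19 to 33 for Y665F against Y665H spleens, 34 to 36 for the difference between T cells and spleens, and 33 to 43 for the slope on Alas2. The replicate numbers did not pair splenic T cells (7 of 21 pairs correlated above 0.1) or spleens (4 of 13), where the block gave 4, 0, 22 and 12 called members in T cells, 1, 33 and 20 in spleens and 40 on the slope. Depth limits splenic T cells most, where 3 of 15 libraries held fewer than 5000000 reads and the lowest member, Gins2, had 221 reads in all. Leaving out Y665H T-cell replicate 1, 2 or 4 kept its reads in the fit, since replicate 4 appears to pool replicates 1 and 2.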
